A study of Mus musculus with 7 samples.

Results

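Pancreatic beta cells make, store and secrete insulin in response to glucose. Their identity is held by a small set of transcription factors, among them Mafa, Nkx6-1 and Pdx1, which act on promoters and on more distant regulatory regions, and DNA at such regions is kept free of nucleosomes. ATAC-Seq reads out this open chromatin with a transposase that cuts and tags accessible DNA. The beta cell open chromatin landscape described here is the set of regions called as peaks in each of 3 beta cell libraries. The peaks of the 3 lists were merged wherever they overlapped by at least 1 bp, which gave 628905 regions, and the 23260 regions (3.70%) with a peak from all 3 lists were kept. A further 32980 regions lay in 2 lists and 572665 in a single list.

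The cells were FACS-sorted from islets of healthy triple transgenic mice (mIns1-H2b-mCherry x Rosa-LSL-YFP x Gcg-Cre or Sst-Cre), pooled by sex. In these mice beta cells are labelled by a nuclear mCherry reporter that the Ins1 promoter drives, while Cre under Gcg or Sst turns on YFP in alpha or delta cells, so each cell type compared here carried the transgenes. Reads from the Ins1 promoter of the reporter and from that of the Ins1 gene cannot be told apart. By the study's methods the cell types came from the same animals, so a beta library may share its mice with an alpha or delta library. The study's sample table gives the pools of alpha 1, beta 2 and delta 1 as female and those of alpha 2, beta 1, beta 3 and delta 2 as male. Peaks on chromosome Y that reached a -log10 q of 2 numbered 30 to 38 in the former and 173 to 208 in the latter. Which same-sex libraries share mice, age, strain background and the Cre line behind each beta library are not given in the sources used here. There were 3 beta, 2 alpha and 2 delta libraries, and the alpha and delta libraries serve as the comparison.

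The beta libraries stood apart from each other before any comparison. Beta 1 held 518503 distinct peaks, beta 2 held 91089 and beta 3 held 103935, against 75860 to 158066 in the alpha and delta libraries. Only 25903 peaks (5.0%) of beta 1 reached a -log10 q of 2, where q is the p-value of the peak adjusted over its list, against 32047 (35.2%) in beta 2 and 38058 (36.6%) in beta 3. Beta 1 therefore had the longest list and the fewest well-supported peaks. The names under which the 3 beta lists were deposited carry another islet cell type than their labels, and all groups here rest on the labels. Because a weak peak of a long list can rank high, the strength of a peak is given both as its percentile by -log10 p within its own list and as its -log10 q.

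The open sequences that the later results turn on are shown first, as 160 bp of GRCm38 (mm10), plus strand, centred on the summit of the beta library in which the peak ranked highest. Capitals mark matches to short words of transcription factor motifs that were counted over all regions and are spelled out further on. The first group lies at the starts of Ins1, one of the mouse insulin genes, and of the beta cell factors Mafa and Nkx6-1.
Ins1 start, chr19:52264029-52264188: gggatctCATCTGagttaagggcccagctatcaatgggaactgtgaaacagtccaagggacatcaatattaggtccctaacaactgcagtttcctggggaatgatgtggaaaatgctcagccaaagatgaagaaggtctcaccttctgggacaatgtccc
Mafa start, chr15:75748238-75748397: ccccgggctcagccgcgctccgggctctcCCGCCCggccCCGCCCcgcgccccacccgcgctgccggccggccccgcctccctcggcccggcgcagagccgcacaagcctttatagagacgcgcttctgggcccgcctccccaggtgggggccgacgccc
Nkx6-1 start, chr5:101665294-101665453: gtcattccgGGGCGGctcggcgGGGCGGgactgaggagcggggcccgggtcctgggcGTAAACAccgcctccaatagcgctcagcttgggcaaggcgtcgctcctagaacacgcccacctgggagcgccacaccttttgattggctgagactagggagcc
The second group lies inside Slc2a2, the glucose transporter of beta cells, and inside G6pc2, the islet glucose-6-phosphatase subunit.
Slc2a2 inside, chr3:28721956-28722115: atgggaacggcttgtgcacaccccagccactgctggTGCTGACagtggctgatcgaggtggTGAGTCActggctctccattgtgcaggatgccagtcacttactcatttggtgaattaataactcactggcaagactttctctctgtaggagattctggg
G6pc2 inside, chr2:69219784-69219943: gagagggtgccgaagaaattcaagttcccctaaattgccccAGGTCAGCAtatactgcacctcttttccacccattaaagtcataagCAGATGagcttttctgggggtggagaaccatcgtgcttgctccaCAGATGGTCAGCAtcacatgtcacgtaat
The third group lies away from gene starts, upstream of Mafa, downstream of Slc2a2 and downstream of the melatonin receptor gene Mtnr1b. The first and the last of these regions were in no alpha or delta list.
Mafa upstream, chr15:75778308-75778467: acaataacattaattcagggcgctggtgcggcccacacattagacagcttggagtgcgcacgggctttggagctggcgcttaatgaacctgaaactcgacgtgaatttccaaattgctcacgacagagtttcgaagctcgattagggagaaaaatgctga
Slc2a2 downstream, chr3:28734861-28735020: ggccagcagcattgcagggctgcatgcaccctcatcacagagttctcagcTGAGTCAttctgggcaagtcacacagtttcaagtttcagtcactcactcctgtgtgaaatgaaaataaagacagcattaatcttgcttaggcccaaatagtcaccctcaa
Mtnr1b downstream, chr9:15802708-15802867: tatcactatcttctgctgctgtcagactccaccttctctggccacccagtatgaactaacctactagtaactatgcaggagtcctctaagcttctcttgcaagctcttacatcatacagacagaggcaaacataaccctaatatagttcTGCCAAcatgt

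Regions shared by the 3 beta lists were concentrated at promoters. Of the 23260 regions, 12064 (51.9%, 95% Wilson interval 51.2 to 52.5%) were promoter-proximal, within 3 kb of an annotated transcription start site (TSS) on either side. A further 5876 (25.3%, 24.7 to 25.8%) were distal-intergenic and 4706 (20.2%, 19.7 to 20.8%) intronic, with 1.68% in exons, 0.830% in UTRs and 0.133% just downstream of a gene. Regions in 2 of the 3 lists were promoter-proximal in 25.5% of cases and distal-intergenic in 40.9%, and regions in a single list in 14.8% and 51.0%. The Wilson intervals given here reflect counting error alone, as regions close together on a chromosome may open together. Regions in both alpha lists were promoter-proximal in 43.5% of cases and those in both delta lists in 42.7%, but they had to appear in 2 lists rather than 3, so these shares cannot be set directly against that of beta cells.

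Beta regions had a median width of 486 bp and together covered 12.1 Mb. Promoter-proximal regions were wider, with a median of 560 bp, than the others, with 420 bp, and 574 of the 614 regions over 1 kb (93.5%) were promoter-proximal. Chromosome 3 held the most regions (1705), and chromosomes 11 and 19 had the highest promoter-proximal shares of any chromosome, 67.1% and 71.4%. Outside promoters, the median distance to the nearest TSS was 19646 bp, and 10.8% of all regions lay over 50 kb from one.

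Most beta regions were also called in alpha and delta cells. Of the 23260 regions, 84.0% had a peak in alpha 1, 87.2% in alpha 2, 91.6% in delta 1 and 86.8% in delta 2. All 4 of these lists held 17507 regions (75.3%, 74.7 to 75.8%), and none of them held 792 (3.40%, 3.18 to 3.65%). At promoters, 89.5% were in all 4 lists and 1.2% in none. Sharing was lower away from promoters, where 59.8% of intronic and 59.3% of distal-intergenic regions were in all 4 lists and 5.23% and 6.33% in none. These differences were not tested, because regions are not replicates.

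**Figure D1:**
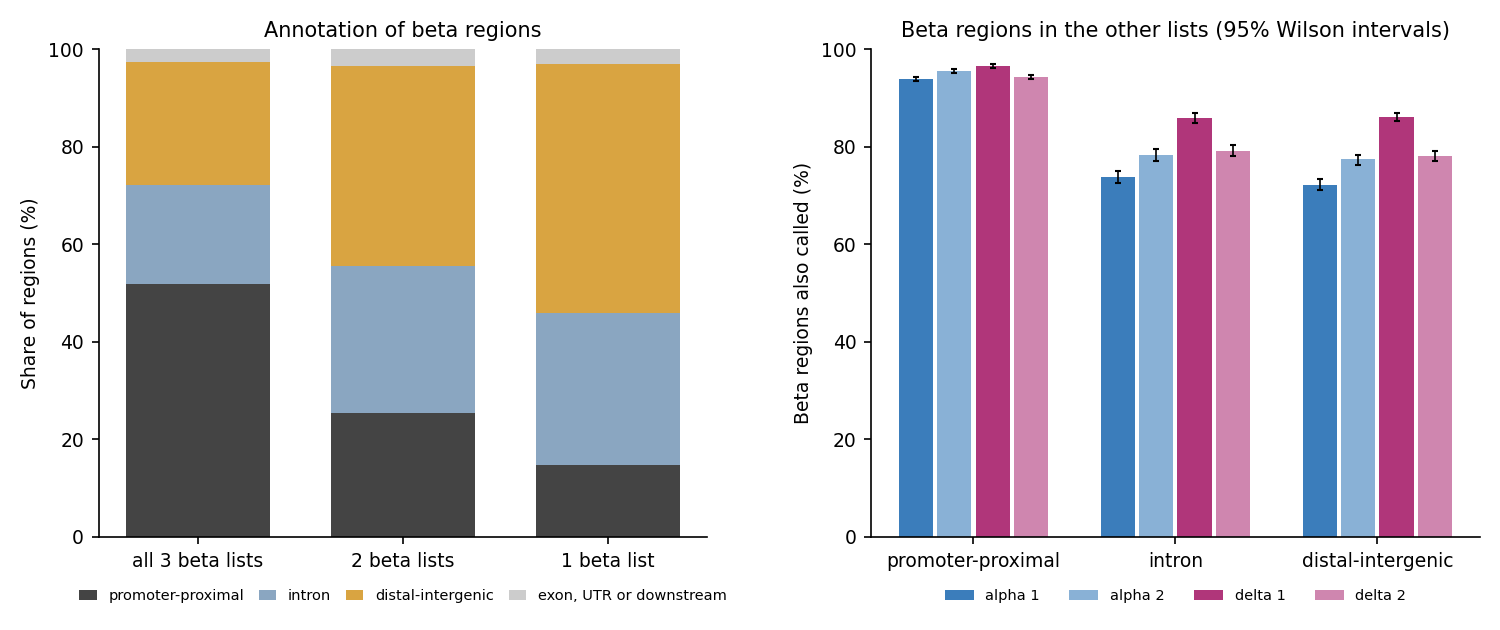
Left, share of regions (%) in each annotation class for regions in all 3, in 2 or in 1 of the beta lists, where promoter-proximal regions make up 51.9%, 25.5% and 14.8%. Right, share of the regions in all 3 beta lists (%) that was also called in each alpha and delta library, by class, with 95% Wilson intervals; promoter-proximal bars lie between 93.9% and 96.6% and the others between 72.2% and 86.2%.

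Sharing with the other cell types rose with the strength of the region. Regions were ranked by the lowest of their 3 beta percentiles. They were split 25%, 50% and 75% of the way up that ranking, and the middle cut fell at a percentile of 80.2. Of the weakest set 47.9% were in all 4 alpha and delta lists, and of the following sets 69.4%, 85.7% and 97.1%. The promoter-proximal share rose along with it, from 33.9% to 45.5%, 55.5% and 72.1%. Among the regions found outside 1 of the other cell types, 1366 (5.87%) were in a delta list and in no alpha list, and 540 (2.32%) were in an alpha list and in no delta list. Delta 1 had the longest of these 4 lists, with 158066 peaks, and the part of list length in this imbalance was not tested.

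Base composition and motif words separated the classes of beta regions. In 200 bp windows at the centre of a region, the median GC content was 65.0% at promoter-proximal regions and 46.5% at the others, against 44.0% and 42.0% in windows 2 kb beside them. The ratio of observed to expected CpG was 0.790 at promoter-proximal regions and 0.208 at the others. The words searched on both strands were TAATTA for homeobox factors such as Pdx1 and Nkx6-1, TGTTTAC for forkhead factors such as Foxa2, TGCTGAC for Maf factors, CAGATG for E-boxes of the Neurod1 type, and GTTGCCA for Rfx factors. The others were TTGGCA for an NF1-type site, AGGGGGC for Ctcf, GGGCGG for the SP/KLF family, AGGTCA for a nuclear receptor site and TGACTCA for AP-1. Matches to different words can overlap, as AGGTCA and the Maf word do in the G6pc2 sequence. Each is a match of letters and not a binding site.

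At promoter-proximal regions the SP/KLF word was the most frequent, in 52.2% of windows against 3.19% beside them. The Ctcf word followed this pattern, in 1209 of 12064 windows against 302. Away from promoters the leading words were the E-box, in 22.7% of windows against 15.0% beside them, and the AP-1 word, in 19.8% against 3.26%. The forkhead word was in 7.30% against 3.15%, the Maf word in 5.49% against 2.57% and the Rfx word in 4.61% against 1.96%. The homeobox word differed less, in 7.87% against 7.18%. Among regions outside promoters, the 647 that were in none of the alpha and delta lists held the E-box in 24.1% (21 to 27.6%), and the 6715 in all 4 held it in 22.4% (21.4 to 23.4%), so their intervals overlapped. The forkhead word was in 4.95% (3.52 to 6.90%) of the former and 7.85% (7.23 to 8.52%) of the latter. In the sequences shown above, the Mafa start holds the SP/KLF word, the Nkx6-1 start holds it beside a forkhead word, and the G6pc2 region holds the E-box and Maf words, each on more than 1 site.

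**Figure D2:**
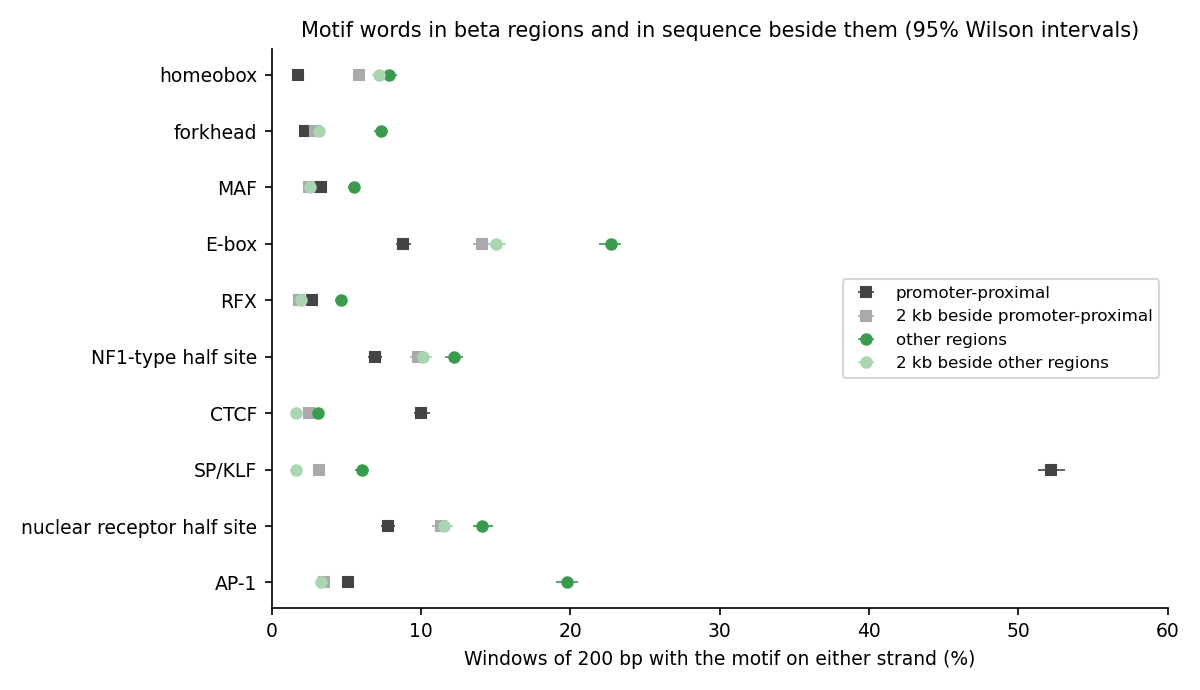
Share of 200 bp windows (%) holding each motif word on either strand, for promoter-proximal and other beta regions and for windows 2 kb beside each, with 95% Wilson intervals. The SP/KLF word at promoters (52.2%) and the AP-1 word (19.8%) and E-box (22.7%) elsewhere lie farthest above the windows beside them.

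The beta label was checked against 6 genes that define beta cells. The start of the gene, taken as 1 kb around its 5′ end, held a peak in all 3 beta libraries at Ins1, Mafa and Nkx6-1, in beta 1 and beta 3 at Pdx1, in beta 3 alone at Ins2, whose annotated 5′ end is that of a long upstream transcript, and in no library at Slc2a2. Over all 21911 protein-coding genes, 9004 (41.1%) had a region of all 3 beta lists within 1 kb of the 5′ end. The count of 3 of 6 is therefore close to the share of all genes. In single libraries a start peak was found at 4, 3 and 5 of the 6 genes in beta 1, beta 2 and beta 3 and at 4 in every alpha and delta library, so these counts do not set beta cells apart. In all 3 beta lists the count was 2 of 6, without Ins1, when each peak had to reach a -log10 q of 2. It was 4 of 6 when any annotated transcript start was allowed, which added Slc2a2, and 4 of 6 without beta 2, which added Pdx1.

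Ins1 (chromosome 19, 52264297 to 52265476, plus strand) had 1 region of all 3 beta lists, over its promoter at 52263915 to 52264479. The peak ranked at percentile 98.7 in beta 1, 41.7 in beta 2 and 86.7 in beta 3, with -log10 q of 7.34, 1.82 and 6.39. Peaks within 1 kb of this start were also present in alpha 1 and alpha 2, at percentiles 21.2 and 53.3, and in delta 1 and delta 2, at 77.2 and 13.9. Their -log10 q was 0.736, 1.42, 3.42 and 0.889 in that order, and the alpha 1 peak lay upstream of the region without overlapping it. Beta 1 and beta 3 were above all 4 by both measures, and beta 2 lay among them. Ins2, the other insulin gene (chromosome 7, 142678656 to 142743381, minus strand, a span that includes a long upstream transcript), had no region of all 3 beta lists within 50 kb. Its window held 31 peaks in beta 1, 1 in beta 2 and 9 in beta 3, none of them among the 25000 strongest of its list. The start used above is that of the long transcript. Most annotated Ins2 transcripts start between 142679533 and 142679726, and within 1 kb of these starts beta 1 had 2 peaks, the stronger at percentile 85.6 with a -log10 q of 1.07, and beta 3 had 1 at percentile 0.303 with a -log10 q of 0.446. Beta 2 and the alpha and delta libraries had none there.

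Mafa (chromosome 15, 75745490 to 75748228, minus strand), a factor of mature beta cells that binds the insulin promoter, was open at its start in every library. Its promoter region, 75748053 to 75748723, ranked at percentiles 98.9, 93.0 and 93.3 in beta 1, beta 2 and beta 3. Alpha and delta libraries gave 92.6 to 96.9, so the groups overlapped. By -log10 q the beta peaks reached 8.96, 8.58 and 13.4 and those of the other libraries 20.3 to 34.6. A second region, 44.0 kb downstream at the Rhpn1 promoter, was called in all 7 libraries. A further region, at -30.1 kb from the Mafa start in an intron of Zc3h3 (75778058 to 75778574), was in all 3 beta lists and in no alpha or delta list. Its support was uneven, with -log10 q of 0.0774 in beta 1, 4.40 in beta 2 and 1.43 in beta 3. The 160 bp shown for it, centred on the beta 2 summit, lie past the end of the beta 1 peak (75778257). The beta 3 peak ends within them, at 75778382.

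Nkx6-1 (chromosome 5, 101658139 to 101664996, minus strand), a homeobox factor that keeps beta cells from taking other fates, had 1 region, 78 bp upstream of the gene. The peak ranked at percentiles 98.9, 92.7 and 97.4 in beta 1, beta 2 and beta 3. In the alpha and delta libraries it ranked at 90.7 to 95, and the groups overlapped. Its -log10 q was 8.71, 8.37 and 28.0 in the beta libraries and 14.2 to 20 in the others. Pdx1 (chromosome 5, 147269959 to 147275848, plus strand), the homeobox factor of pancreas development and insulin transcription, had a peak at its start at percentile 87.6 in beta 1 and 85.9 in beta 3, with -log10 q of 1.10 and 5.96. Beta 2 had none there, while all 4 alpha and delta libraries did, at percentiles 60.7 to 81.5. Their -log10 q was 2.08 and 5.41 in the alpha and 4.86 and 4.48 in the delta libraries, so beta 1 lay below all 4 by this measure. The single region of all 3 beta lists in the Pdx1 window lay 29.6 kb downstream of its start and 819 bp from Cdx2, an intestinal homeobox gene, and was called in all 7 libraries.

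Slc2a2 (chromosome 3, 28697903 to 28731359, plus strand) had the most regions of the 6 genes. Of its 6 regions, that inside the gene (28721869 to 28722206), 24.1 kb from the annotated start and 352 bp from a later transcript start, ranked at percentiles 87.6, 92.9 and 94.2 in beta 1, beta 2 and beta 3. In alpha 1, alpha 2, delta 1 and delta 2 it ranked at 60, 92.3, 89.5 and 60.7, which overlaps the beta range. Its -log10 q was 1.10, 8.57 and 15.0 in the beta libraries and 1.98, 17.8, 10.1 and 3.69 in the others, again with overlap. A region 3304 bp past the end of the gene (28734663 to 28735124) was in no alpha list. Beta 1, beta 2 and beta 3 ranked it at 96.6, 93.4 and 88.5, and delta 1 and delta 2 at 59.0 and 70.3, so every beta library ranked it above both delta libraries. By -log10 q the values were 2.81, 9.10 and 7.51 against 1.84 and 5.44, and beta 1 fell between the delta libraries. The remaining 4 regions were called in all 7 libraries, and the strongest of them lay at the promoter of Eif5a2, 83.4 kb from the Slc2a2 start.

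**Figure D3:**
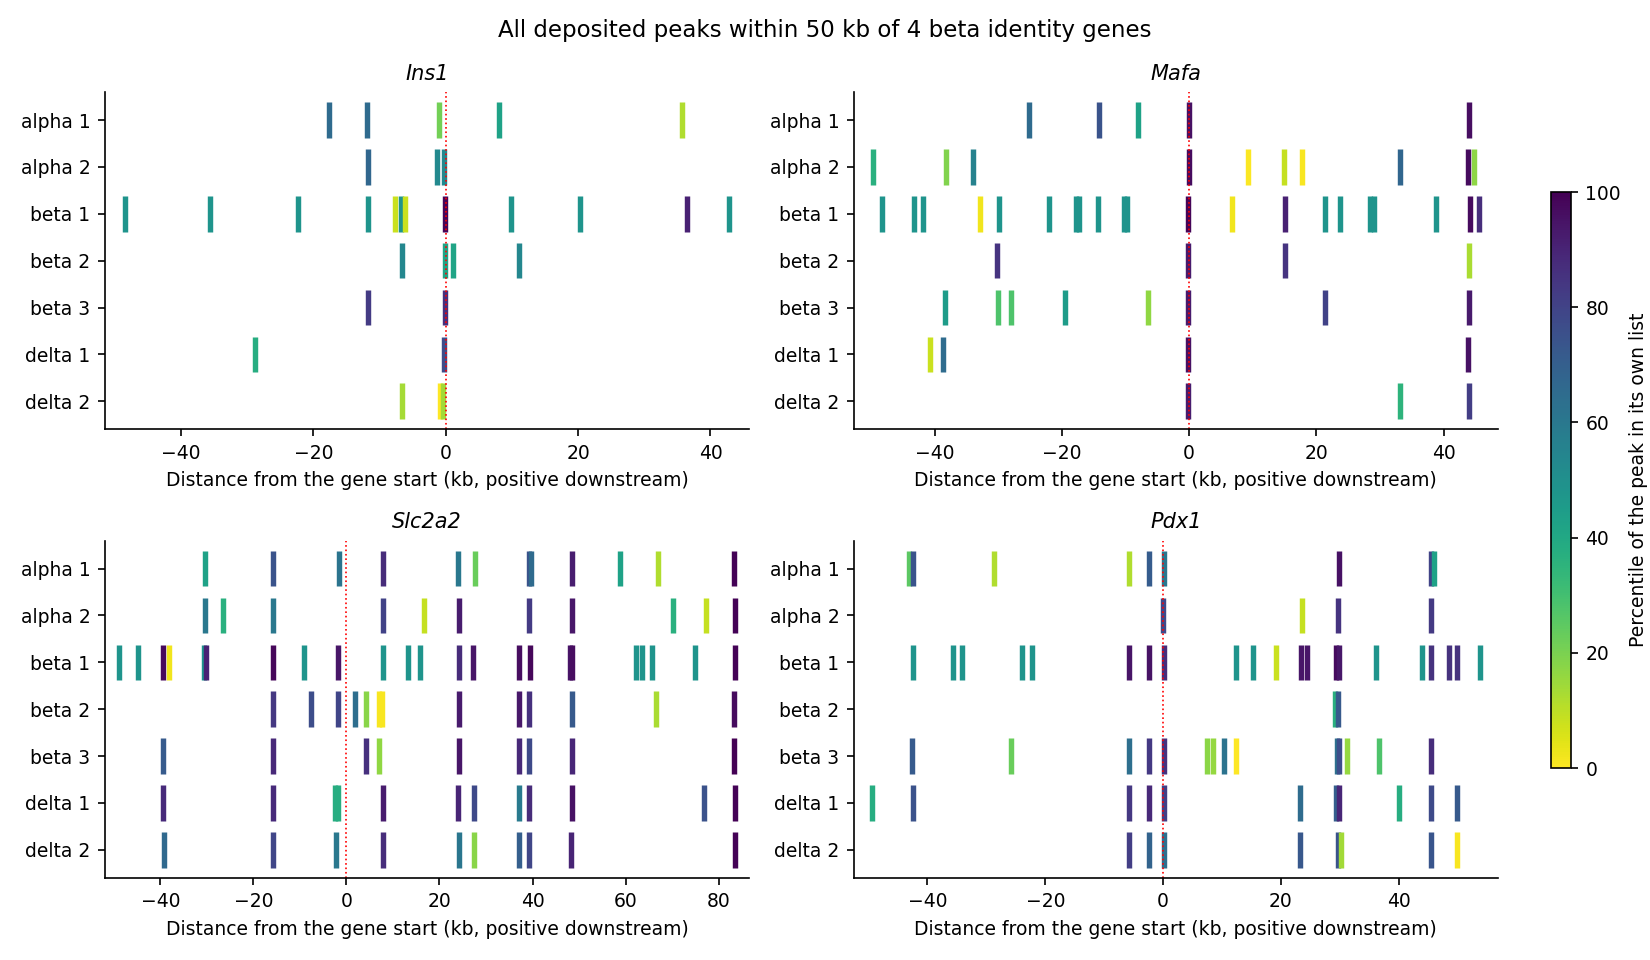
Peaks of every library around Ins1, Mafa, Slc2a2 and Pdx1, each tick the centre of a deposited peak at its distance from the gene start (kb, positive downstream), coloured by its percentile in its own list. The Mafa start is open in all 7 libraries, the peak 37.0 kb from the Slc2a2 start is in no alpha library, and beta 2 has no peak at the Pdx1 start.

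To compare libraries of unequal list length, peaks were counted in each window (the gene and 50 kb on either side) among the 25000 strongest of each list. For Slc2a2 these counts were 6, 8 and 7 in beta 1, beta 2 and beta 3, 3 and 5 in the alpha libraries and 7 and 7 in the delta libraries. Mafa had 2, 3 and 3 in beta libraries and 2 in every other, and Pdx1 had 1, 0 and 4 in beta libraries against 1, 3, 2 and 5. Nkx6-1 had 1 in each beta library against 1 or 2, Ins1 had 1, 0 and 2 against 0 in every other, and Ins2 had 0 throughout. No marker separated the groups. Over the 6 genes the two-sided exact permutation p lay between 0.286 and 1.00 and the Benjamini-Hochberg adjusted p between 0.686 and 1.00, and 0.0571 is the smallest p that 3 against 4 libraries allow.

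Gene groups differed widely in how many gene starts were open in all 3 beta lists, to be read against the 41.1% of all protein-coding genes. Among 21 islet transcription factors, 15 had an open start, including Neurod1, Isl1, Foxa1, Foxa2, Insm1, Rfx3, Rfx6, Glis3 and Mnx1. With a -log10 q of at least 2 in every list, 8 of the 21 starts were open against 31% of all genes. In single libraries 20, 18 and 17 of the 21 starts had a peak in beta 1, beta 2 and beta 3. In alpha 1, alpha 2, delta 1 and delta 2 the counts were 18, 20, 19 and 19. At the stricter q they were 11, 10 and 17 against 18, 19, 17 and 17, so these counts do not set beta cells apart. Housekeeping genes were open in 12 of 14 cases, among them Actb, Gapdh and Polr2a. Insulin granule and exocytosis genes were open in 10 of 21 cases, with the prohormone convertases Pcsk1 and Pcsk2, the granule proteins Scg2 and Scg5, and the exocytosis genes Snap25, Syt7 and Rab3a among them. In single libraries they had a start peak in 17, 12 and 19 cases in beta 1, beta 2 and beta 3, against 19, 20, 19 and 19 in the others. Genes of glucose sensing and of KATP channel coupling were open in 5 of 12 cases, Pcx, Abcc8, Cacnb2 and Ucp2 among them, and receptors in 6 of 12, Gipr, Prlr, Ghr, Insr, Igf1r and Chrm3.

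Genes that beta cells keep low, known as disallowed genes, had an open start in 3 of 13 cases, Slc16a1, Acot7 and Lmo4. Alpha cell markers were open in 3 of 8 cases, Ttr, Gc and Pou3f4, and Gcg was not. None of 8 delta, 7 duct, 8 endothelial, 10 immune and 8 stellate or fibroblast markers had an open start, and 1 of 8 acinar markers did, Bhlha15. Among 12 genes of other tissues, Mbp alone was open.

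The same markers were followed in each library, since cells of another type could enter a sort. Delta markers with a peak at the start numbered 4 of 8 in beta 1, 1 in beta 2 and 0 in beta 3, against 5 in every alpha and delta library. Immune markers numbered 5 of 10 in beta 1, 0 in beta 2 and 1 in beta 3, and endothelial markers 2, 0 and 0 of 8, against 0 immune markers in both alpha libraries, 2 in delta 1 and 0 in delta 2, and 2 endothelial markers in each of these 4. Acinar markers numbered 4, 1 and 1 of 8 in beta 1, beta 2 and beta 3, against 2, 4, 2 and 2 in alpha 1, alpha 2, delta 1 and delta 2. In the same order duct markers numbered 3, 1 and 1 of 7 against 2, 2, 3 and 4. Stellate or fibroblast markers numbered 4, 0 and 1 of 8 against 4, 4, 2 and 2. With a -log10 q of at least 2, beta 1 had 1 delta and 1 immune marker, and beta 2 and beta 3 had 0 of each. Acinar markers were then 0, 1 and 0 in beta 1, beta 2 and beta 3, and duct, endothelial and stellate or fibroblast markers 0 throughout. At that level alpha 1, alpha 2, delta 1 and delta 2 each had 4 delta and 0 immune markers. In that order they had 1, 2, 1 and 1 acinar, 0, 0, 2 and 3 duct and 0, 1, 2 and 2 endothelial markers. Their stellate or fibroblast markers numbered 0, 0, 0 and 1. Alpha markers with a peak at the start numbered 5, 4 and 7 of 8 in beta 1, beta 2 and beta 3 against 7 or 8 in the alpha and delta libraries, and 2, 3 and 3 at the stricter level against 6 to 8. The part of other cells in these counts was not tested. The share of all protein-coding genes with a peak at the start was 69.7% in beta 1, 48.9% in beta 2 and 56.7% in beta 3, and 37.9%, 39.3% and 47.6% at the stricter level. In alpha 1, alpha 2, delta 1 and delta 2 it was 60.5%, 62%, 62.3% and 56.3%, and 53.6%, 56%, 53.3% and 50.8% at that level.

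**Figure D4:**
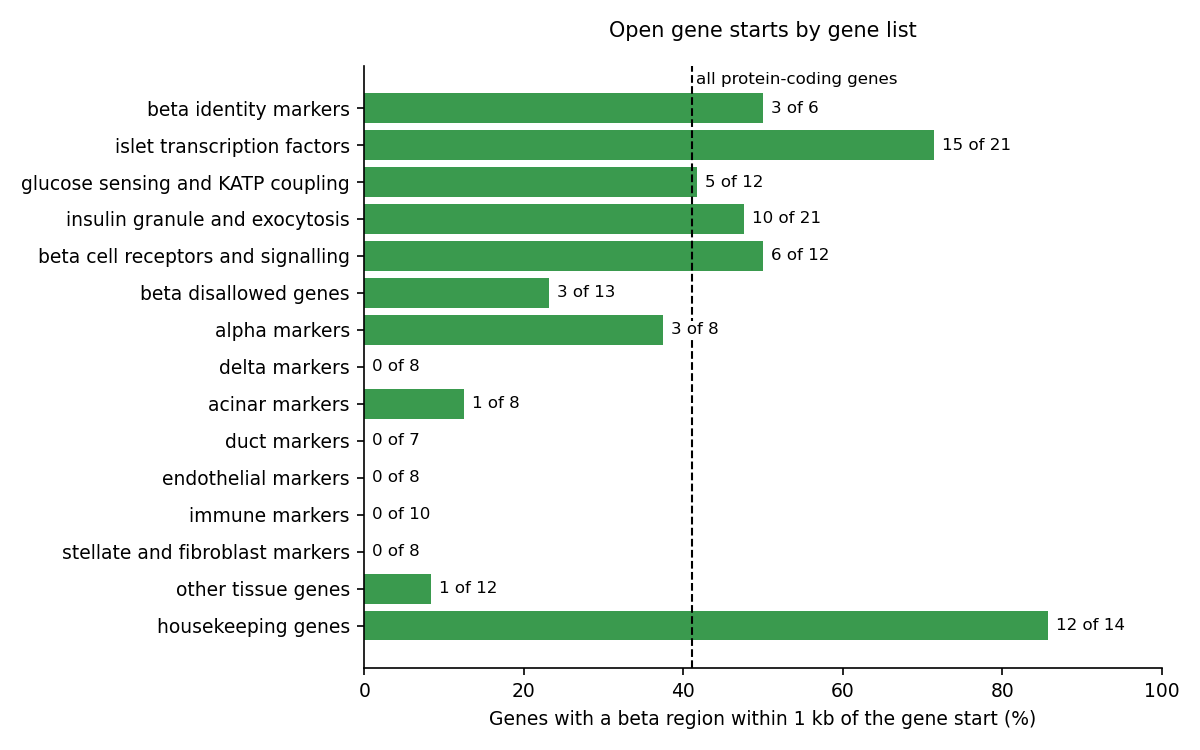
Share of genes (%) in each list with a region of all 3 beta lists within 1 kb of the gene start, with the count beside each bar and a dashed line at the 41.1% of all protein-coding genes. Islet transcription factors (15 of 21) and housekeeping genes (12 of 14) reach furthest past the line, and 5 lists of other cell types are at 0.

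Counted over whole gene windows, 17222 of the 21911 protein-coding genes (78.6%) had at least 1 beta region within 50 kb, with a median of 2 regions and 154 windows holding 10 or more. Within the gene groups, Ptprn2, a granule membrane protein, had 14 regions, Bach2 had 13, the L-type calcium channel gene Cacna1c and the carboxypeptidase gene Cpe had 11 each, Cacnb2 had 8 and the incretin receptor gene Gipr had 7. These windows differ in length. Per 100 kb they held 1.57 (Ptprn2), 2.91 (Bach2), 1.55 (Cacna1c), 5.49 (Cpe), 1.65 (Cacnb2) and 6.36 (Gipr) regions, against a median of 1.29 over all genes. Bach2 had 11, 17 and 15 of the strongest peaks in beta 1, beta 2 and beta 3 and 7, 13, 9 and 11 in alpha 1, alpha 2, delta 1 and delta 2, and these ranges overlapped. G6pc2 had 6 regions. Its counts of strongest peaks were 4, 6 and 5 in beta libraries and 3, 2, 2 and 2 in the others, higher in every beta library, but the adjusted p was 0.0981 (limma). The region inside G6pc2 ranked at percentiles 98.6, 89.3 and 86.9 in beta 1, beta 2 and beta 3, and at 53.0, 72.6 and 17.9 in alpha 2, delta 1 and delta 2, with no peak in alpha 1. By -log10 q the beta values of 7.15, 6.01 and 6.50 were also above the others, at 1.34, 2.88 and 1.42.

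The genes with most beta regions were mostly very long. The predicted gene Gm20388, annotated across 4435 kb of chromosome 8, had 50 regions, 41 of them promoter-proximal to the many genes it spans. Dlg2, a synaptic scaffold gene of 1973 kb, had 27, and the axon guidance gene Nav2 and the synaptic adhesion gene Nrxn3 had 21 each. Tenm4 and Lsamp, both neural adhesion genes, had 19, the cAMP phosphodiesterase gene Pde4d had 18 and the actin-associated gene Palld had 17. Of the 27 regions at Dlg2, 18 were in all 4 alpha and delta lists and 1 in none, while of the 19 at Lsamp 6 were in all 4 and 1 in none. These genes were picked for their counts, so no test applies. Per 100 kb of window, Dlg2 had 1.30 regions and Lsamp 0.827, against a median of 1.29 over all protein-coding genes.

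The other 2 of these 10 genes lay in dense blocks. A block of 21 regions on chromosome 9, 3001982 to 3035528, over Gm10722, Gm10721 and similar predicted genes, was 99.2% soft-masked as repeats by the median of its regions, and 19 of its 21 regions were in all 4 alpha and delta lists. A block of 15 regions on chromosome 4, 88757458 to 88806290, over Gm13283 and other interferon-like predicted genes, had all 15 in every alpha and delta list and a median soft-masked share of 13.7%. Reads of near-identical copies cannot be told apart at such loci, so values there are uncertain.

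By regions per 100 kb of window, compact gene-rich loci led. After these 2 blocks came the histone genes Hist1h2af with 11 and Hist1h2bb with 9.95 regions per 100 kb, then Zfp580 with 9.79, Bcl3 with 9.62, Ptgir with 9.58, S100a11 with 9.45, Erf with 9.24 and Inafm1 with 8.86. Histone genes also share close sequences. Around Erf all 10 regions, and around Hist1h2af 10 of 11, were in all 4 alpha and delta lists.

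Chains of regions with gaps of at most 10 kb were taken as clusters. Clusters of 2 or more regions held 5335 regions (22.9%), and 25 clusters held 5 or more. The largest after the blocks on chromosomes 9 and 4 were 9 regions on chromosome 6, 47739752 to 47788787, near Pdia4, and 8 over histone genes on chromosome 13, 23730460 to 23762597. Next were 7 regions on chromosome 6, 47654796 to 47685855, near Ezh2. Clusters of 6 included those at Atp5c1, Kin and Itih2 on chromosome 2, and at Trim28, at Ccdc9 and Bbc3, at Bcl3, at Blvrb, Sertad3 and Sertad1 and at Vsig10l and Iglon5 on chromosome 7. Counting only regions over 3 kb from a TSS, the largest clusters were the pair on chromosome 6, with 7 regions each. A further 10 clusters held 4 regions each, among them those within Slco5a1, Hepacam2 and Cpe. Of these 10, the cluster nearest Prdm2 on chromosome 4 (142900881 to 142925787, at a distance of 181604 bp) was the least shared, with 1 of its 4 regions in all 4 alpha and delta lists, 2 in each alpha list, 4 in delta 1 and 3 in delta 2. The cluster nearest Scaf8 on chromosome 17 had 2 of its 4 regions in all 4 lists and 1 in none, with a median soft-masked share of 69.8%.

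The widest regions were open in nearly every library. The widest, 3308 bp on chromosome 1 (24612878 to 24616185), shared 99% of its 31-base words with the mitochondrial genome, and another, 2145 bp at Myo3a on chromosome 2, shared 46.5%. Between them in width, a region of 2824 bp on chromosome 4 (80002420 to 80005243), shared 11.5%. The authors aligned reads to an index without mitochondrial DNA, and the part of mitochondrial reads in these regions was not tested. The next were promoters, with 1839 bp at Bzw2, 1681 bp at Snap91, 1660 bp at Rpl7, 1599 bp at Tdrd3, 1572 bp at the splicing factor gene Srsf7 and 1563 bp at Setd5, none of which shared such words. A region of 1655 bp near 2010315B03Rik on chromosome 9 was 78.4% soft-masked and was the only 1 of the 10 absent from an alpha or delta list. The 10 strongest regions away from promoters, by their lowest beta percentile, were likewise called in all 7 libraries, and 5 of them shared between 27.7% and 59.0% of their 31-base words with the mitochondrial genome.

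The strongest regions in all 3 beta lists and in no alpha or delta list were weaker than these. They lay near Rps6ka5 (chromosome 12, 100735162 to 100735742), Pcdh19 (X, 133725282 to 133725652), Mtnr1b (9, 15802618 to 15803022) and Rhob (12, 8450642 to 8451022), and the strongest, on chromosome 7 (53160176 to 53160646), lay 1144448 bp from the nearest protein-coding gene. Their lowest beta percentiles were 91.9 near Rps6ka5, 90.8 near Pcdh19, 90.7 near Mtnr1b, 90.4 near Rhob and 93.3 on chromosome 7. The region near Mtnr1b had a -log10 q of at least 3.21 in every beta list.

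To find genes whose surroundings differed between beta cells and the others, the window counts of the 25000 strongest peaks were fitted for all genes (limma, log2 of count plus 1, Benjamini-Hochberg over 16667 genes with a mean of at least 1 peak). Beta libraries had more peaks at 12 genes (0.0720% of those tested) and fewer at 60 (0.360%), with an adjusted p under 0.05. At an unadjusted p under 0.05 there were 700 and 2152. The median difference over all tested genes was -0.11 on the log2 scale. The beta lists also held the fewest peaks that reached a -log10 q of 2, 25903 to 38058 against 41683 to 52057 in the other libraries, and the part of this in the excess of lower calls was not tested. In all 12 and all 60 genes no beta library overlapped an alpha or delta library, which held for 1.72% of the tested genes with beta above and 5.06% with beta below. The called genes were picked by these same counts, so their separation restates the calls and is no further support.

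Among the genes with more peaks in beta cells, Mtnr1b, a melatonin receptor of beta cells, had 4, 2 and 3 peaks in beta 1, beta 2 and beta 3 and 0 in the alpha and delta libraries (log2 difference 1.97, SE 0.31). It passed the filter on low counts through the beta libraries alone, so it had to differ, and its values are given as a description. Rspo2, Slc10a2 and Meox2 likewise averaged under 1 peak in the alpha and delta libraries and passed the filter through beta, and their values are no test either. Of the 3 beta regions of Mtnr1b, that shown above was in no other list, a second 11114 bp past the gene was in alpha 2, delta 1 and delta 2 at percentiles 54.8, 72.3 and 18.9 against 89.7 to 99.1 in the beta lists, and the last, in an intron, was in both delta lists at percentiles 8.04 and 55.8. By -log10 q the second region reached 6.28 or more in the beta lists and at most 2.77 elsewhere, while for the last beta 2 (2.57) was below delta 2 (3.21). Slc10a2, a bile acid transporter gene, had 3 peaks in each beta library, 0 in both alpha and 1 in both delta libraries (1.5, SE 0.23). Its region at -1.71 kb from the gene start (chromosome 8, 5106860 to 5107267) ranked at percentiles 99.9, 92.9 and 98.5 in beta 1, beta 2 and beta 3 and at 87.5 and 78.3 in delta 1 and delta 2, and was in neither alpha list. Its -log10 q was 32.2, 8.57 and 38 in the beta libraries, above the 8.0 and 7.77 of the delta libraries. Rspo2, which encodes a Wnt pathway agonist, had 5, 6 and 3 peaks against 1, 1, 0 and 0 (1.96, SE 0.26).

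Lsamp had 24, 24 and 21 peaks in beta libraries against 13, 13, 11 and 8 (0.99, SE 0.12, limma adjusted p = 0.0238). The other genes named here were the cadherin gene Pcdh15, the forkhead gene Foxp2, Nkain2, Nebl, the Rac exchange factor gene Prex2 and the homeobox gene Meox2, with log2 differences from 0.92 to 1.59. None of the 4 marker genes that were tested was called, Slc2a2 having an adjusted p of 0.353, and Ins1 and Ins2 fell under the filter.

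Among the genes with fewer peaks in beta cells, several named here were neighbours. Ffar4, a fatty acid receptor gene, and Pde6c near it on chromosome 19 had 1 peak in every beta library against 4 to 6 in the others (log2 differences of -1.63, each with a limma adjusted p of 0.0142). Rbp4, which lies between them and encodes a retinol carrier, had 0 against 3 to 5 (-2.37). Of the 6 delta markers that were tested, Rbp4 and Ffar4 were called, beside 0.360% of all tested genes. Rbp4 had to differ, for the reason given below, and the windows of Rbp4 and Ffar4 share peaks. Their calls are therefore no test of the delta markers as a group. Taldo1, a pentose phosphate pathway gene, Cend1, Pidd1 and the mitochondrial glutamate carrier gene Slc25a22 lie together on chromosome 7, had 1 or 2 peaks in every beta library against 5 to 7, and again share windows. Chromosome 7 held 26 of the 60 genes (43.3%) and 8.44% of the tested genes, and neighbouring windows there share peaks. Nhsl1 had 1, 1 and 2 peaks against 9 to 11 (-2.23), Pappa2, a protease gene of growth factor signalling, had 0 against 3 to 5 (-2.31), and the sodium channel gene Scn8a had 0 against 3 or 4 (-2.08). Rbp4, Pappa2 and Scn8a, with 0 peaks in every beta library, passed the filter through alpha and delta alone and had to differ, so their values are a description.

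**Figure D5:**
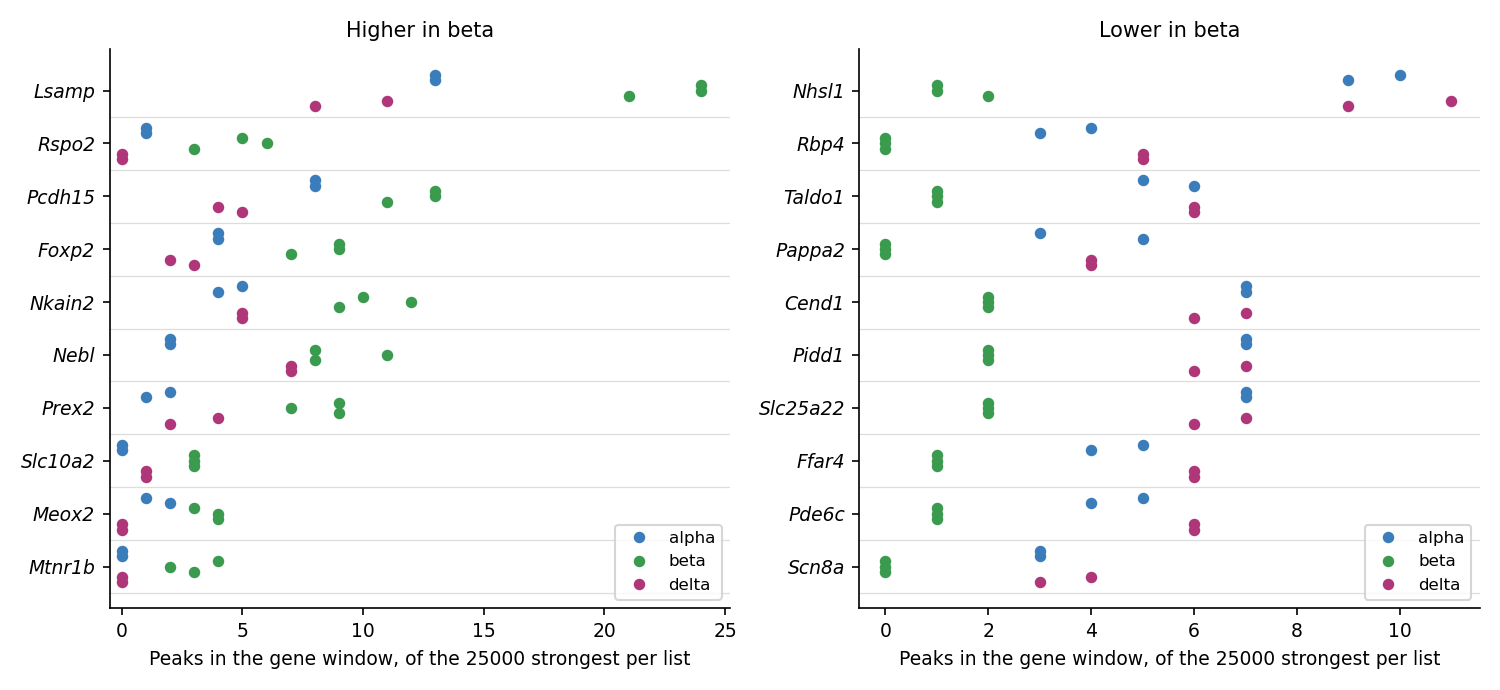
Number of peaks in the window of each gene, among the 25000 strongest of each list, for the 10 genes of lowest adjusted p in each direction, with 1 point per library. Beta points lie apart from all alpha and delta points in every gene, as at Lsamp (21 to 24 against 8 to 13) and Nhsl1 (1 or 2 against 9 to 11).

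These calls depended strongly on the fit. With all deposited peaks 0 genes were called in either direction, with 50000 peaks per list 7 were higher and 17 lower, and with peaks of a -log10 q of at least 2, where list length differs between libraries, 16 were higher and 3048 lower. Leaving out any of the 7 libraries raised the counts, to between 101 and 271 higher and 202 and 623 lower. All 20 genes named here lost their call with 50000 peaks per list and with all peaks. Prex2 kept its call in 0 of the 7 fits without 1 library. Mtnr1b was tested in 6 and lost its call without alpha 1, delta 1 or delta 2, Rspo2 lost it without either alpha library, beta 1 or either delta library, and Lsamp without either alpha or any beta library. Pcdh15, Foxp2 and Nebl kept theirs in 2 of 7 fits and Nkain2 and Meox2 in 3. Without 1 library the log2 difference lay between 0.89 and 1.09 for Lsamp, 1.79 and 2.20 for Rspo2 and 1.95 and 2.16 for Mtnr1b. With other lists the differences moved both ways. At the stricter q all 10 higher genes named here had a smaller difference (-0.11 to 1.25) and all 10 lower genes one larger in size (-3.08 to -1.61). With 50000 peaks the higher genes lay between 0.48 (Lsamp) and 1.35 (Mtnr1b), with Nkain2 alone larger than before (1.2 against 0.97). The lower genes lay between -2.41 and -0.94, with Rbp4 (-2.41 against -2.37) and Pde6c (-1.77 against -1.63) larger in size and Ffar4 at -1.58. With all peaks Lsamp (1.06) and Nkain2 (1.38) were larger, the other higher genes lay at 0.63 or above, and the lower genes lay between -0.44 and -0.15. Among the lower genes Ffar4, Pde6c, Taldo1, Cend1, Pidd1 and Slc25a22 kept their calls in all 7 fits without 1 library, and Nhsl1 lost its call without delta 1.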

How the data were processed

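The data are the deposited peak lists of 7 ATAC-Seq libraries, 3 beta, 2 alpha and 2 delta, each of FACS-sorted islet cells. The authors sequenced single-end 50 bp reads, checked them with FastQC, trimmed them with Trimmomatic, aligned them with Bowtie2 to a GRCm38 (mm10) index that lacked mitochondrial DNA, and used Picard on duplicates. After blacklist regions were taken out, MACS2 was run on every library by itself. Their versions and the MACS2 threshold are not given in the sources used here. Each deposited peak has a score, which is 10 times its -log10 p, a fold enrichment, which is the ratio of signal at the summit to local background, a -log10 p and a -log10 q. The lowest -log10 p was 2.01 in every list. The lists hold no reads, so read depth could not be computed from them, and the read totals that the study gives per library are not used here, and they also hold no limit of detection for an absent peak.

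Intervals listed more than once for several summits were counted once. Regions were annotated with GENCODE vM21 in the order promoter-proximal (3 kb), UTR, exon, intron, downstream (300 bp) and distal-intergenic, and sequence was read from the RefSeq copy of GRCm38. Soft-masked shares are those of lower-case bases in that sequence. Differences of peak counts per gene window were fitted with limma 3.58.1 in R 4.3.3 (pseudocount 1, trend and robust), with alpha, beta and delta as groups and the contrast of beta against the mean of the others. The study tested reads per region, which these lists do not hold. The fit was tested on simulated counts. Window counts are small whole numbers and often equal within a cell type, so their estimated spread rests largely on the moderation across genes. Single genes were compared by exact permutation over the 35 assignments of libraries. P-values measure the spread between these libraries, which came from pools of mice. The fit takes no account of mice shared between cell types. Motif words were searched in 200 bp windows.

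The members, gene lists and tests were chosen with earlier results of these data known. Genes and regions were named by rank (the 10 highest by number of regions, density, width, strength or adjusted p), and the sequences shown, and G6pc2 and the Mtnr1b regions, were chosen after their values were seen. The alternatives were stricter or shorter lists, coverage of 0.5 of a region, other windows, pseudocounts and gaps, other moderation, blocking on replicate number, and dropping each library in turn. Leaving out regions over 90% soft-masked was added after seeing the data. Computing used Python 3.11.15, with scipy 1.17.1 for tests, pandas 2.3.3 and numpy 2.4.6 for tables, statsmodels 0.14.6 for adjustment and matplotlib 3.10.9 for plots.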

Additional observations from a re-analysis of the deposited data

How the results depend on the processing

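The set of beta regions depended on the lists. From 23260 regions it fell to 13145 where q was held to a -log10 of 2 and to 11613 with 25000 peaks per list. It was 15756 with 50000 peaks and 17221 with 0.5 of the region covered by each list. With only 2 beta lists to share a region, it was 26788 without beta 1, 40188 without beta 2 and 35686 without beta 3. The promoter-proximal share of 51.9% was 61.6% at the stricter q, 59.0% and 63.9% with 50000 and 25000 peaks per list, 46.7% with promoters upstream only, and 40.7 to 49.8% without a beta library. The share in all 4 alpha and delta lists, 75.3%, was 83.8% at the stricter q, 79.5% with 50000 peaks, 77.1% with coverage of 0.5, and 53.2 to 69.0% without a beta library. Open gene starts, 41.1% of protein-coding genes, were 31% at the stricter q, 34.5% and 28.9% with 50000 and 25000 peaks, 31.2% with coverage of 0.5, 43.9% within 3 kb, 44.9% at any transcript start, and 42.6 to 48.8% without a beta library. Islet transcription factors with open starts fell from 15 to 8 of 21 both at the stricter q and with 25000 peaks. Clusters of 5 or more regions numbered 4 with gaps of 5 kb and 140 with gaps of 20 kb, against 25. Leaving out regions over 90% soft-masked, chosen after seeing the data, gave 23084 regions and 24 clusters.

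Gene windows called higher and lower in beta cells, 12 and 60, were 6 and 40 with a pseudocount of 0.5, 183 and 364 without the filter on low counts, 16 and 3048 at the stricter q, 7 and 17 with 50000 peaks, 0 and 0 with all peaks (185 higher and 0 lower at an unadjusted p under 0.05), 105 and 269 with 20 kb windows, 61 and 213 with 100 kb windows, and 78 and 161 with plain moderation. Without 1 library they were 101 to 271 and 202 to 623, where a lone alpha or delta library was assumed to vary like the other groups. Of the 72 calls, 4 were shared with 50000 peaks and 35 to 52 without 1 library. Pcdh15 reversed, to -0.11, at the stricter q. Of 318 refitted values of the 20 named genes, 204 kept direction and call and 113 kept the direction only. At the stricter q the difference in marker windows, not called there, also turned from 1.5 to -0.67 peaks for Slc2a2 and from 0.67 to -0.08 for Mafa, and went from 1.00 to 0 for Ins1. The causes were not tested. No marker gene window passed the exact permutation test at the stricter q, with 20 kb windows or without 1 library, where it was run. None could pass, as even all 7 libraries allow no p under 0.0571 in this test. The outcome therefore says nothing about the markers.

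Replicate numbers are shared across cell types in the labels. The deviations of libraries of the same number had correlations of -0.01 to 0.06, but 4 of these 6 pairs join pools of opposite sex, which cannot share mice. For the 6 same-sex pairs of a beta with another library the correlations were -0.06 to 0.03. The 2 alpha libraries deviate from their mean by mirror images, as do the 2 delta libraries. The same-sex values therefore repeat the opposite-sex values with the sign changed. They cannot show whether libraries that share mice deviate together. With the replicate block 130 genes were higher and 312 lower, of which 26 were among the 72 calls. Lsamp, Pcdh15, Foxp2, Nkain2, Nebl, Prex2, Meox2, Mtnr1b and Pappa2 kept their direction under the block but lost their call. Their log2 differences stayed near those of the main fit, as at Lsamp (1.05 against 0.99).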
